A study of Homo sapiens with 8 samples.

Results

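The RAB small GTPases were taken as the gene symbols made of RAB, a number and at most 1 letter from A to D, which gave 64 genes among the 60196 symbols that stood on 1 row of the deposited tables. Their mRNAs were measured in P-body preparations and in the fraction titled "cyto", read here as cytosol, of 2 established human acute myeloid leukaemia cell lines. The groups were MOLM-13 P-body, MOLM-13 cytosol, HEL P-body and HEL cytosol, with 2 libraries in each. MOLM-13 is a monocytic line and HEL an erythroleukaemia line, both grown in medium with serum and with no treatment in the labels. Each line stands for 1 immortalised culture, and the labels leave out the method of P-body isolation. Nothing in the labels says that the 2 libraries of a group came from separate cultures, so the p-values rest on the scatter of libraries that may be technical repeats.

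RAB proteins are membrane-anchored switches that cycle between a GTP-bound and a GDP-bound form. Each member marks a set of membranes: exchange factors load it with GTP, GTPase-activating proteins end the active state, and effectors such as tethers and motor adaptors read it to move, dock and fuse vesicles. Many RABs exist as close paralogues, encoded by separate genes, whose proteins do overlapping work on the same membrane. P-bodies are cytoplasmic granules that hold mRNAs away from translation, so paralogues with near-identical proteins give mRNAs that can be compared for their place in the cell.

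3 pairs of coding stretches show how far such mRNAs differ while the protein stays the same, and they are printed because these are the pairs whose members were called in opposite directions in MOLM-13. Each stretch holds the first 30 codons of the longest run that encodes the same amino acids in both genes, with capitals at the bases that differ within the pair (GENCODE release 29, GRCh38, coding strand, positions counted from the start codon's first base). RAB1A lies at chr2:65070696-65130331 on the minus strand and RAB1B at chr11:66268533-66277492 on the plus strand. The pair differs at 18 of 90 bases, 14 of them at the third codon position, and the differing base is G or C at 3 positions in RAB1A and at 14 in RAB1B.
RAB1A: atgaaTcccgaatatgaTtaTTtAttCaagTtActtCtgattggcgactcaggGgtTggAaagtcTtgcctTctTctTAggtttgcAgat
RAB1B: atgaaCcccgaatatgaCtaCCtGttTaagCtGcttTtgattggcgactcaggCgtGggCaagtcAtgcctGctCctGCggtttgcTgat
RAB5A lies at chr3:19947079-19985175 and RAB5B at chr12:55973913-55996683, both on the plus strand. Coding bases 184 to 273 are shown, and among 16 differing bases G or C stands at 2 positions in RAB5A and at 11 in RAB5B.
RAB5A: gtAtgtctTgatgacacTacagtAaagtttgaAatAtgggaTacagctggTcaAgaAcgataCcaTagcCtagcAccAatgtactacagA
RAB5B: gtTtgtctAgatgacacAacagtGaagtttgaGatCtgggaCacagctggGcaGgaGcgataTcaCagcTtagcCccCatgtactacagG
RAB11A lies at chr15:65726054-65891991 and RAB11B at chr19:8389981-8404434, both on the plus strand. Their first 90 coding bases differ at 19, all at the third codon position, with G or C at 5 of these in RAB11A and at 17 in RAB11B.
RAB11A: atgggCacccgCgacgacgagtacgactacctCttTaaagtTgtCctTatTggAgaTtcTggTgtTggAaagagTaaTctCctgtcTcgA
RAB11B: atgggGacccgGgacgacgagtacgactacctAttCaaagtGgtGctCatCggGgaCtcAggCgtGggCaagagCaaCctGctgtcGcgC
Over the whole run of shared amino acids from which the RAB11 stretch was cut, 146 codons, the pair differed at 106 bases, with G or C at 8 of them in RAB11A and at 98 in RAB11B.

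The libraries held 5897625 to 18071473 counts. Of 15 monocytic markers, 14 reached a mean of 1 CPM in MOLM-13 and 4 in HEL. Of 16 erythroid and megakaryocytic markers, 4 did in MOLM-13 and 15 in HEL, so each line carried the markers of its name. Of 7 lymphoid markers, 3 did in MOLM-13 and 1 in HEL. The summed level of a line's own markers was lower in P-bodies, at 2724 to 2784 CPM against 3912 to 4178 CPM in cytosol for MOLM-13, and at 1761 to 1783 CPM against 3124 to 3335 CPM for HEL. Markers of the other line differed in direction. Erythroid and megakaryocytic markers summed to 52.8 to 59.7 CPM in MOLM-13 P-bodies against 71.7 to 75.5 CPM in cytosol. Monocytic markers summed to 430 to 446 CPM in HEL P-bodies against 256 to 271 CPM in cytosol. The part of these markers in the RAB results was not tested. Levels are given as CPM, the count scaled to a common library size by TMM factors. The bulk of genes sets that scale, so each difference is relative to the other mRNAs measured with it, and the absolute quantity of an mRNA was not measured.

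RAB mRNAs did not move as a block: in MOLM-13 P-bodies RAB1A stood 3.56-fold above its cytosolic level, while its paralogue RAB1B stood 2.02-fold below its own. In MOLM-13, 44 members were tested, of which 13 were higher (29.5%, against 32.4% of all 14089 genes tested) and 12 lower (27.3%, against 28.5%). In HEL, 47 were tested, of which 12 were higher (25.5%, against 27.5% of all 14772 genes) and 19 lower (40.4%, against 27.1%; edgeR quasi-likelihood test, adjusted p below 0.05 for each call). The median log2 change of tested members was -0.05 in MOLM-13 and -0.17 in HEL, beside -0.04 and -0.06 over all genes in the same order. Summed over the 64 genes, the level was 2155 and 2187 CPM in MOLM-13 P-bodies against 1597 and 1608 CPM in its cytosol, and 3163 and 3178 CPM in HEL P-bodies against 3276 and 3182 CPM in its cytosol. On this TMM scale the sum was thus higher in both P-body libraries of MOLM-13, and slightly below both cytosolic sums in those of HEL. The TMM factors were 0.860 and 0.858 in MOLM-13 P-bodies against 1.157 and 1.171 in its cytosol. They differed about as much as the MOLM-13 sums, so the higher sum there rests on that scaling. In HEL they were 0.884 and 0.903 against 1.122 and 1.117, which raises the P-body sums relative to the cytosolic ones. Under library totals, which moved the median of all genes to -0.47 in MOLM-13 and -0.39 in HEL, the counts of higher and lower members were 7 and 24 in MOLM-13 and 7 and 25 in HEL. With that scaling the shares over all genes were 20.6% higher and 50.8% lower for MOLM-13, and 18.7% higher and 45.8% lower for HEL, so the RAB counts moved with those of all genes.

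**Figure D1:**
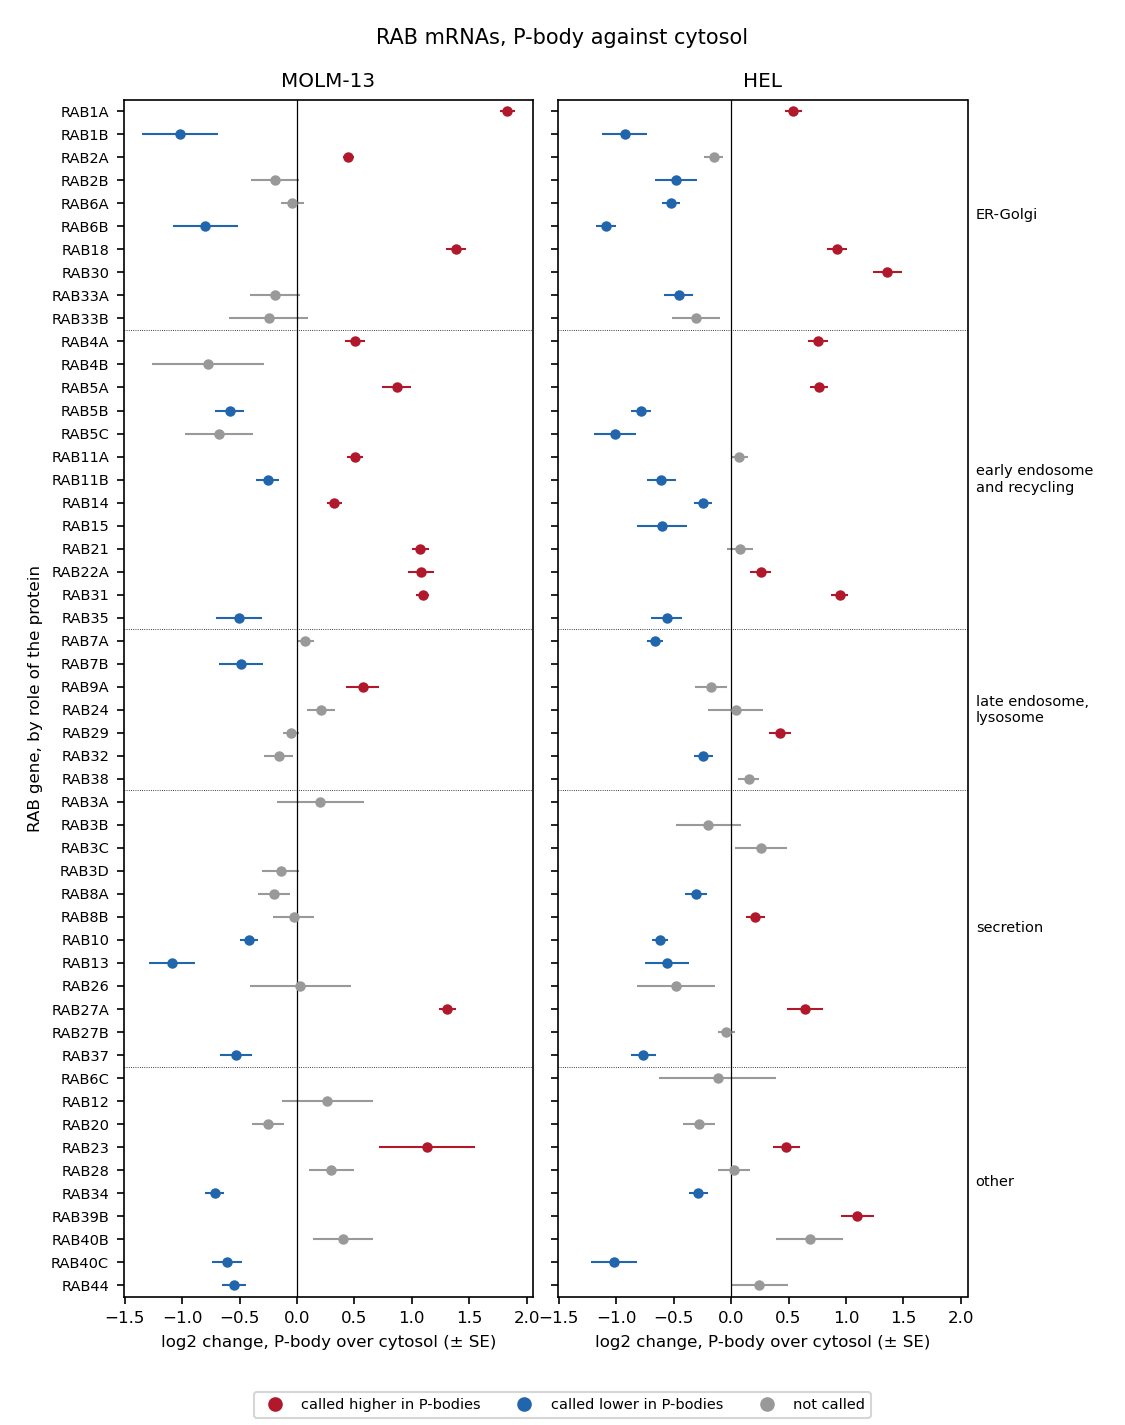
Log2 change (P-body over cytosol, x axis) of each tested RAB gene with its standard error, in MOLM-13 (left) and HEL (right), with genes grouped by the role of the protein. Red points were called higher in P-bodies, blue points lower and grey points were not called. Changes ran from -1.09 to 1.83 in MOLM-13 and from -1.09 to 1.36 in HEL.

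Among RABs of transport from the endoplasmic reticulum to and within the Golgi, 3 of 9 tested members rose and 2 fell in MOLM-13 P-bodies, and 3 of 10 rose and 5 fell in HEL P-bodies. For this and each later role group or gene list, the shares of all genes were 32.4% higher and 28.5% lower for MOLM-13, and 27.5% higher and 27.1% lower in HEL, so that 3 of 9 is near the share of all genes. RAB1A, which drives the first step of that route, was the member with the greatest rise in MOLM-13, with 214 and 216 CPM in P-bodies against 59.6 and 60.9 CPM in cytosol (3.56-fold, log2 change 1.83 ± 0.064, SE, edgeR adjusted p = 3.71e-18). In HEL RAB1A had 252 and 235 CPM in P-bodies against 167 and 168 CPM in cytosol (1.46-fold, edgeR adjusted p = 1.69e-05). P-body and cytosolic libraries did not overlap in either line. Its paralogue RAB1B went the other way, with 2.34 and 1.42 CPM in MOLM-13 P-bodies against 3.98 and 3.75 CPM in cytosol (log2 change -1.02 ± 0.33, SE, edgeR adjusted p = 0.0103). These levels rest on 22 and 12 counts in P-bodies and 27 and 31 in cytosol, and the call was lost without MOLM-13 P-body replicate 2 (log2 change -0.70) or cytosol replicate 1 (-0.95). In HEL RAB1B had 5.27 and 6.70 CPM in P-bodies against 9.71 and 13.0 CPM in cytosol (1.90-fold lower, edgeR adjusted p = 0.00106). GENCODE places an antisense gene over 589 exonic bases of RAB1B and CEP68 over 757 exonic bases of RAB1A, each on the opposite strand, and without a stated strand setting such reads cannot be told apart.

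RAB18, found on lipid droplets and the endoplasmic reticulum, had 83.3 and 83.9 CPM in MOLM-13 P-bodies against 30.8 and 33.0 CPM in cytosol, a 2.61-fold rise. In HEL it had 217 and 198 CPM in P-bodies against 117 and 102 CPM in cytosol, a 1.89-fold rise. RAB18 was thus high in all 4 P-body libraries relative to the cytosol of the same line. RAB30, a Golgi RAB, rose in HEL more than any other member, with 32.5 and 30.6 CPM in P-bodies against 12.8 and 11.9 CPM in cytosol (2.56-fold, edgeR adjusted p = 3.24e-07), a call lost after removal of the trend that log2 changes of all genes follow with GC content and transcript length (log2 change 0.31). In MOLM-13 RAB30 had 4 to 8 counts in each library and was not tested. RAB6B, the paralogue of the Golgi RAB6A, fell in both lines: it had 2.55 and 2.96 CPM in MOLM-13 P-bodies against 5.02 and 4.60 CPM in cytosol, and 58.3 and 56.1 CPM in HEL P-bodies against 115 and 129 CPM in cytosol (2.13-fold lower, the lowest log2 change of the family in HEL). The MOLM-13 call of RAB6B was lost without any 1 of 3 libraries, with log2 changes of -0.67 without P-body replicate 1, -0.71 without cytosol replicate 1 and -0.85 without cytosol replicate 2.

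RAB6A itself fell in HEL (log2 change -0.52) and had a log2 change of -0.04 ± 0.10 (SE) in MOLM-13. RAB2A, which acts between the endoplasmic reticulum and the Golgi, rose in MOLM-13 with 392 and 386 CPM in P-bodies against 291 and 279 CPM in cytosol (1.36-fold). In HEL RAB2A had 149 and 159.7 CPM in P-bodies against 179 and 165 CPM in cytosol and was not called. Its paralogue RAB2B was lower in HEL (log2 change -0.48), a call lost without HEL P-body replicate 2 (-0.23) or cytosol replicate 1 (-0.26), and RAB33A, a Golgi RAB, fell in HEL (log2 change -0.46). RAB33B, which is linked to autophagy, was not called in either line.

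RABs of early endosomes and recycling were the group with the most rises in MOLM-13, where 7 of 12 tested members rose and 3 fell, with a median log2 change of 0.41, beside 32.4% higher and 28.5% lower over all genes. After removal of the GC and length trend, RAB31 alone of these 7 stayed called higher. In HEL 4 of 12 rose and 6 fell, with a median of -0.08, where 27.5% of all genes were higher and 27.1% lower. RAB31, an endosomal RAB of the RAB5 branch, had 230.0 and 236 CPM in MOLM-13 P-bodies against 108 and 110.4 CPM in cytosol (2.14-fold, edgeR adjusted p = 1.36e-14). In HEL it had 207 and 216 CPM in P-bodies against 110.4 and 109 CPM in cytosol (1.93-fold, edgeR adjusted p = 5.26e-08). RAB31 kept this call under each alternative tried in both lines. RAB22A, its closest relative, had 40.7 and 44.2 CPM in MOLM-13 P-bodies against 20.7 and 19.5 CPM in cytosol (2.12-fold). RAB21, an endosomal RAB that follows integrins, had 108 and 111 CPM in MOLM-13 P-bodies against 50.02 and 53.5 CPM in cytosol (2.104-fold). After removal of the GC and length trend, neither was called in MOLM-13, at log2 changes of 0.09 for RAB22A and 0.08 for RAB21. In HEL both moved little, with log2 changes of 0.26 ± 0.091 (SE) for RAB22A and 0.07 ± 0.11 (SE) for RAB21, and the call of RAB22A was lost without HEL P-body replicate 1 (0.27) or cytosol replicate 2 (0.22).

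The RAB5 proteins, which organise early endosomes and their fusion, showed a split within 1 subfamily. RAB5A had 30.04 and 30.8 CPM in MOLM-13 P-bodies against 15.3 and 17.8 CPM in cytosol (1.83-fold higher), and 152 and 147 CPM in HEL P-bodies against 91.3 and 85.2 CPM in cytosol (1.70-fold higher). RAB5B had 18.6 and 18.6 CPM in MOLM-13 P-bodies against 30.2 and 25.9 CPM in cytosol (1.502-fold lower), and 45.6 and 48.2 CPM in HEL P-bodies against 81.8 and 79.7 CPM in cytosol (1.72-fold lower). Neither gene overlapped between fractions in either line. RAB5C fell in HEL, with 4.89 and 5.40 CPM in P-bodies against 10.9995 and 9.80 CPM in cytosol (2.02-fold lower), and had a log2 change of -0.68 ± 0.30 (SE) in MOLM-13 that missed the threshold (edgeR adjusted p = 0.0521). Reads of RAB5C are uncertain, since another annotated coding gene shares 794 exonic bases with it on the same strand. Per kilobase of annotated transcript, RAB5A stood at 12.0, RAB5B at 3.48 and RAB5C at 2.71 CPM per kb in MOLM-13 P-bodies, against 6.53, 5.26 and 4.23 CPM per kb in the same order in MOLM-13 cytosol.

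The recycling RABs split by gene as well. RAB4A, of fast recycling from early endosomes, rose in MOLM-13 (68.4 and 62.7 CPM in P-bodies against 46.8 and 45.8 CPM in cytosol). In HEL it rose as well (97.4 and 100.9 CPM in P-bodies against 61.1 and 56.6 CPM in cytosol). It shares 648 exonic bases with SPHAR, a coding gene on the same strand, so its reads are uncertain. RAB11A, of the slow recycling route, rose in MOLM-13 with 97.7 and 93.8 CPM in P-bodies against 65.8 and 68.9 CPM in cytosol (1.42-fold), while in HEL it had 292 and 290.4 CPM in P-bodies against 289.7 and 264 CPM in cytosol and was not called. RAB11B fell in HEL, with 15.9 and 17.3 CPM in P-bodies against 24.7 and 25.9 CPM in cytosol (1.53-fold lower). In MOLM-13 RAB11B had 38.5 and 45.4 CPM in P-bodies against 46.3 and 53.1 CPM in cytosol (1.19-fold lower, edgeR adjusted p = 0.0314), a call lost without P-body replicate 1 (log2 change -0.12) or cytosol replicate 2 (-0.13). RAB14, between the Golgi and endosomes, was the 1 member called in opposite directions: it had 121 and 131 CPM in MOLM-13 P-bodies against 102 and 99.4 CPM in cytosol, and 144 and 156 CPM in HEL P-bodies against 182 and 172 CPM in cytosol. Its changes were small, with log2 changes of 0.32 and -0.24 in that order, and the HEL call was lost without HEL P-body replicate 1 (-0.18), P-body replicate 2 (-0.21) or cytosol replicate 1 (-0.21). RAB35, of a further recycling route, fell in both lines (log2 change -0.51 in MOLM-13 and -0.56 in HEL), the MOLM-13 call being lost without P-body replicate 1 (-0.41), cytosol replicate 1 (-0.53) or cytosol replicate 2 (-0.43). RAB15 was lower in HEL (log2 change -0.60), a call lost without HEL P-body replicate 1 (-0.27) or cytosol replicate 2 (-0.39).

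Among late endosomal and lysosomal RABs, 1 of 6 tested members rose and 1 fell in MOLM-13, and 1 of 6 rose and 2 fell in HEL. RAB7A, the RAB of late endosomes and lysosomes, had 82.6 and 83.4 CPM in MOLM-13 P-bodies against 75.1 and 82.4 CPM in cytosol and was not called there. In HEL RAB7A fell, with 206 and 207 CPM in P-bodies against 323 and 329 CPM in cytosol (1.58-fold lower, edgeR adjusted p = 1.11e-06). The fall of RAB7A in HEL held under each alternative tried. RAB9A, of traffic from late endosomes to the Golgi, rose in MOLM-13 (19.4 and 19.3 CPM in P-bodies against 13.1 and 13.0 CPM in cytosol) and had a log2 change of -0.17 ± 0.14 (SE) in HEL. RAB29, which recruits the kinase LRRK2 to membranes, had 85.4 and 87.3 CPM in MOLM-13 P-bodies against 92.1 and 87.3 CPM in cytosol, and rose in HEL with 59.0 and 56.2 CPM in P-bodies against 42.8 and 42.9 CPM in cytosol (1.34-fold). RAB7B fell in MOLM-13 with a log2 change of -0.49, a call lost when any single library was left out (-0.45 to -0.49). RAB32, of lysosome-related organelles, was lower in HEL (log2 change -0.24), a call lost without P-body replicate 1 (-0.20), P-body replicate 2 (-0.19) or cytosol replicate 2 (-0.23). RAB24 and, in HEL, RAB38 were not called.

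Among RABs of secretion, 1 of 9 tested members rose and 3 fell in MOLM-13, and 2 of 10 rose and 4 fell in HEL. RAB27A, which docks secretory granules in blood cells, rose in MOLM-13 with 145 and 133 CPM in P-bodies against 54.7 and 57.3 CPM in cytosol (2.48-fold, edgeR adjusted p = 4.50e-14). In HEL it rose with 21.8 and 18.6 CPM in P-bodies against 14.9 and 11.1 CPM in cytosol (1.56-fold). The paralogue RAB27B was well detected in HEL, at 184 and 174 CPM in P-bodies against 192 and 177 CPM in cytosol, groups that overlapped, and it had at most 2 counts in any MOLM-13 library. RAB13, of epithelial junctions and exocytosis, had the lowest log2 change of the family in MOLM-13, with 6.58 and 5.22 CPM in P-bodies against 13.7 and 11.6 CPM in cytosol (2.12-fold lower, edgeR adjusted p = 4.39e-05). It shares 682 exonic bases with another annotated coding gene on the same strand, and its HEL call (log2 change -0.56) was lost when any single HEL library was left out (-0.49 to -0.58). RAB10, of transport to the plasma membrane, fell in both lines, with 51.7 and 51.3 CPM in MOLM-13 P-bodies against 70.7 and 67.1 CPM in cytosol, and 169 and 171 CPM in HEL P-bodies against 268 and 254 CPM in cytosol. RAB37, of secretory granules, fell as well, 1.44-fold in MOLM-13 and 1.70-fold in HEL. RAB8A and RAB8B, of exocytosis and cilium formation, diverged in HEL: RAB8A was lower, with 50.5 and 49.3 CPM in P-bodies against 58.5 and 65.1 CPM in cytosol, and RAB8B higher, with 86.7 and 84.5 CPM in P-bodies against 74.9 and 73.1 CPM in cytosol. Both calls were narrow (edgeR adjusted p = 0.0134 and 0.0477 in that order). The RAB8B call was lost without P-body replicate 1 (log2 change 0.20), cytosol replicate 1 (0.22) or cytosol replicate 2 (0.19), and that of RAB8A without P-body replicate 2 (-0.20) or cytosol replicate 2 (-0.23). In MOLM-13 neither was called. RAB26 in both lines, RAB3A and RAB3D in MOLM-13 and RAB3B and RAB3C in HEL, RABs of regulated exocytosis, were tested and not called.

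The other members included 1 of 8 tested that rose and 3 that fell in MOLM-13, and 2 of 9 that rose and 2 that fell in HEL. RAB39B, known from neuronal disease, rose in HEL with 18.7 and 21.3 CPM in P-bodies against 8.96 and 9.69 CPM in cytosol (2.14-fold, edgeR adjusted p = 1.39e-05), and had at most 1 count in a MOLM-13 library. RAB23, a regulator of Hedgehog signalling, rose in HEL (31.0 and 36.1 CPM in P-bodies against 23.4 and 24.7 CPM in cytosol). In MOLM-13 RAB23 was called higher on 25 and 17 counts in P-bodies against 9 and 7 in cytosol, a call lost without P-body replicate 1 (log2 change 0.93) or cytosol replicate 2 (0.83), and it shares 2842 exonic bases with BAG2 on the opposite strand. RAB40C, whose protein recruits a ubiquitin ligase through a SOCS box, fell in both lines: it had 17.1 and 19.6 CPM in MOLM-13 P-bodies against 25.8 and 29.8 CPM in cytosol, and 6.21 and 8.33 CPM in HEL P-bodies against 12.0 and 17.4 CPM in cytosol. RAB34, of cilium assembly and lysosome positioning, fell in MOLM-13 with 46.9 and 48.0 CPM in P-bodies against 78.2 and 77.8 CPM in cytosol (1.64-fold lower) and had a log2 change of -0.28 in HEL, a call lost without HEL P-body replicate 2 (-0.18). RAB44, a large RAB with calcium-binding motifs, fell in MOLM-13 (30.3 and 33.6 CPM in P-bodies against 42.5 and 49.99 CPM in cytosol) and had a log2 change of 0.24 ± 0.25 (SE) in HEL. RAB12, RAB20, RAB28 and RAB40B were not called where tested.

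Over both lines 39 members were tested, of which 8 were higher in both P-body groups, 10 lower in both, 1 called in opposite directions, 5 called in MOLM-13 but not in HEL, 9 called in HEL but not in MOLM-13, and 6 called in neither. The shares of all genes in these classes were not computed, so the counts do not show a trait particular to RAB genes. Of the calls, 19 of 25 in MOLM-13 and 22 of 31 in HEL were kept when any single library of that line was left out. Fewer were kept with the GC and length trend removed, 10 of 25 in MOLM-13 and 12 of 31 in HEL. A refit with DESeq2 kept 18 of 25 in MOLM-13 and 22 of 31 in HEL. A further 12 of the 64 members were tested in neither line, namely RAB1C, RAB6D, RAB9B, RAB17, RAB19, RAB25, RAB36, RAB39A, RAB40A, RAB41, RAB42 and RAB43. RAB1C is annotated as a processed pseudogene without a coding sequence. Among untested members the highest count in a library was 12 in MOLM-13 and 18 in HEL, and 2 members in MOLM-13 and 3 in HEL had no count at all. RAB43 and RAB4B share 3956 and up to 1076 exonic bases in that order with read-through genes annotated on the same strand, so their low counts cannot be read as low levels of mRNA.

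The paralogue comparison asked whether genes that encode near-identical proteins place their mRNA alike. For 10 pairs with both genes tested in both lines, the log2 ratio of the pair was computed in each library, a value in which library scaling cancels, and its mean in P-bodies minus that in cytosol was taken. In 9 of 10 pairs the difference had the same sign in both lines. This count takes the sign alone and includes pairs whose MOLM-13 difference lay within its error. These are RAB5B over RAB5C (0.02 ± 0.52) and RAB8A over RAB8B (-0.14 ± 0.33, SE for each). The pairs within RAB5 share genes. The ratio of RAB1A over RAB1B had the widest shift in MOLM-13, with log2 values of 6.52 and 7.24 in P-bodies against 3.90 and 4.02 in cytosol, a difference of 2.92 ± 0.37 (SE, 7.56-fold). In HEL the same ratio was 5.58 and 5.13 in P-bodies against 4.10 and 3.70 in cytosol, a difference of 1.46 ± 0.30 (SE). RAB5A over RAB5B shifted alike in both lines, by 1.47 ± 0.22 in MOLM-13 and 1.55 ± 0.070 in HEL (SE), so that the log2 ratio was 0.69 and 0.73 in MOLM-13 P-bodies against -0.98 and -0.54 in MOLM-13 cytosol. RAB5A therefore had more counts than RAB5B in P-bodies of MOLM-13 and fewer in its cytosol, a comparison of counts that takes no account of transcript length.

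Shifts were also found for RAB11A over RAB11B (0.75 ± 0.16 in MOLM-13 and 0.68 ± 0.12 in HEL), RAB6A over RAB6B (0.77 ± 0.11 and 0.56 ± 0.13 in the same order) and RAB40B over RAB40C (1.00 ± 0.30 and 1.70 ± 0.56, SE for each). RAB5A over RAB5C shifted by 1.49 ± 0.31 in MOLM-13 and 1.78 ± 0.10 in HEL. In these 6 pairs the P-body and cytosolic ratios did not overlap in either line and moved the same way in both. Each had an exact two-sided permutation p of 0.0556, the smallest that 36 arrangements of fraction labels within lines can give, and 0.0926 after Benjamini-Hochberg adjustment over 10 pairs, so the design could not reach 0.05. RAB2A over RAB2B moved by 0.65 ± 0.17 in MOLM-13 and 0.33 ± 0.27 in HEL (exact permutation p = 0.111, adjusted 0.139). RAB8A over RAB8B moved by -0.14 ± 0.33 in MOLM-13 and -0.52 ± 0.094 in HEL (exact permutation p = 0.111, adjusted 0.139). The ratios of RAB5B over RAB5C (0.02 ± 0.52 and 0.23 ± 0.072, SE) and of RAB33A over RAB33B (0.07 ± 0.19 and -0.15 ± 0.21, SE) showed no shift beyond their errors in MOLM-13, and only that of RAB5B over RAB5C did in HEL. Members were called in opposite directions in 3 pairs in MOLM-13 (RAB1A and RAB1B, RAB5A and RAB5B, RAB11A and RAB11B) and in 4 pairs in HEL (RAB1A and RAB1B, RAB5A and RAB5B, RAB5A and RAB5C, RAB8A and RAB8B).

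**Figure D2:**
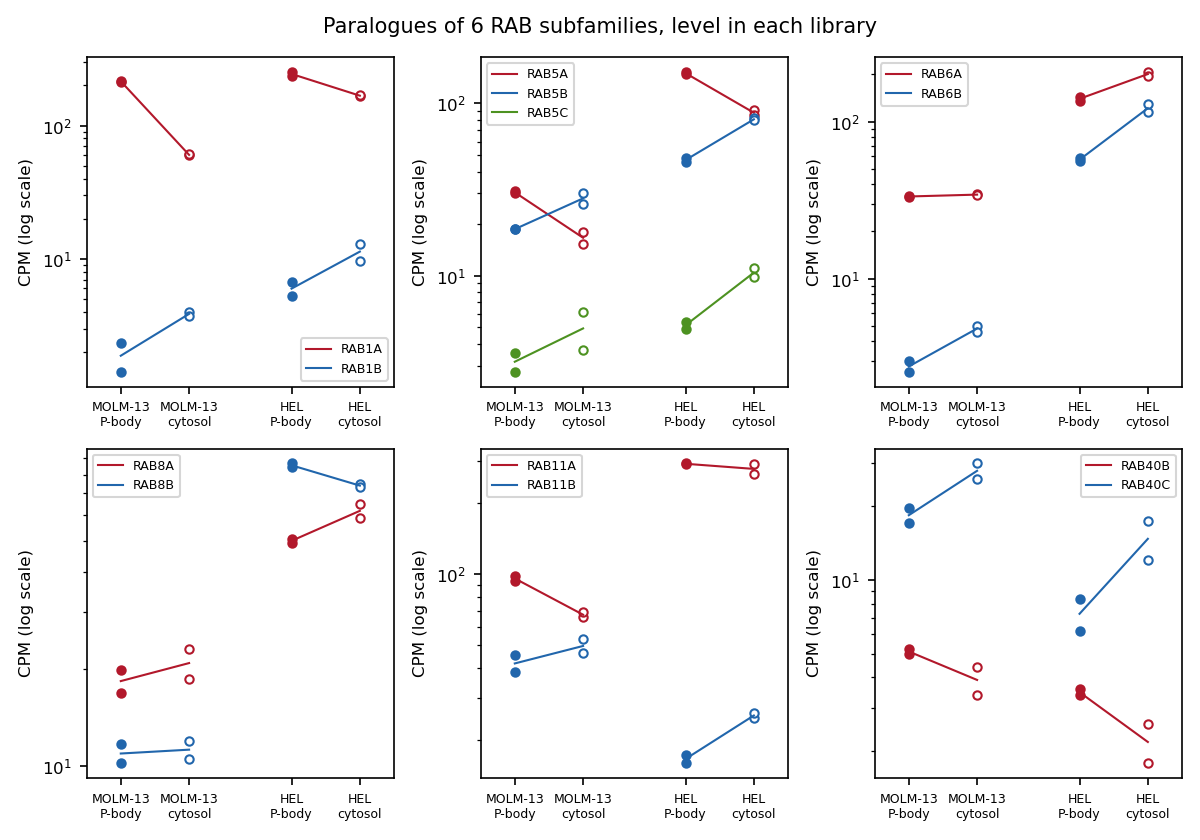
Level (CPM, log axis) of paralogues of 6 RAB subfamilies in each library, with filled points for P-body and open points for cytosolic libraries and lines joining the means of 2 libraries. The lines of RAB1A and RAB1B, and of RAB5A and RAB5B, slope in opposite directions in both lines, with RAB1A at 214 and 216 CPM in MOLM-13 P-bodies against 59.6 and 60.9 CPM in MOLM-13 cytosol.

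The difference between lines was tested as the P-body change in MOLM-13 minus that in HEL, in a fit of all 8 libraries. Of 53 members tested, 6 had a higher change in MOLM-13 (11.3%, against 9.15% of all 17477 genes tested) and 5 a lower one (9.43%, against 13% of all genes). The median of all genes in this fit was -0.11, and it ran from -0.14 to 0.19 when 1 library was left out, so differences of this size depend on scaling. RAB1A had the greatest called difference above 0, at 1.10 ± 0.099 (SE, edgeR adjusted p = 1.35e-07), followed by RAB21 at 0.81 ± 0.14 and RAB22A at 0.63 ± 0.14 (SE). These 3 were kept under each alternative tried for this comparison. RAB7A (0.54), RAB2A (0.41) and RAB14 (0.37) were higher in MOLM-13 as well. These 3 calls were lost after removal of the GC and length trend (0.23 for RAB7A, 0.20 for RAB2A and 0.17 for RAB14). The median of all genes in that fit was -0.26, so part of this fall is shared by all genes. RAB29 (-0.67), RAB34 (-0.62), RAB4A (-0.44), RAB44 (-0.97) and RAB30 (-1.92, on 4 to 8 counts in each MOLM-13 library) had lower changes in MOLM-13, and each of these 5 calls was lost when HEL P-body replicate 1, HEL cytosol replicate 1 or HEL cytosol replicate 2 was left out. RAB14 was lost without MOLM-13 P-body replicate 2 (0.32), and RAB30 and RAB4A without that library (-1.65 and -0.37) or MOLM-13 cytosol replicate 1 (-1.21 and -0.43). With scaling factors computed within each line, an alternative chosen after seeing the data, 11 members were higher and 4 lower, with 10 of the 11 calls kept and RAB4A (-0.23) lost. In that setting 2754 of all 17477 genes were higher and 1326 lower, beside 1600 and 2275 in the main fit, so the RAB counts moved with those of all genes.

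**Figure D3:**
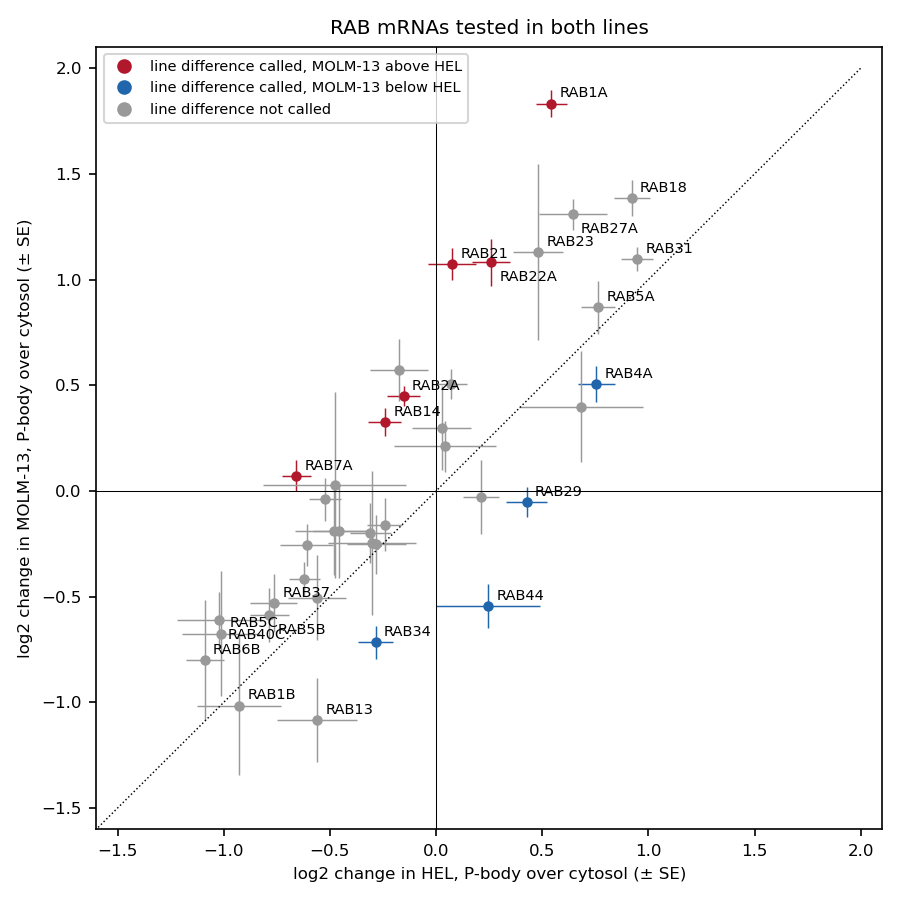
Log2 change of P-body over cytosol in MOLM-13 (y axis) against that in HEL (x axis) for the 39 RAB genes tested in both lines, with standard errors and a dotted line of equal change. Red and blue points had a called difference between lines, and RAB1A stands farthest above the dotted line among them, at 1.83 in MOLM-13 and 0.54 in HEL.

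Members called higher tended to have a lower GC content than those called lower, and all genes tested followed the same trend. Base composition played no part in choosing the members. In MOLM-13 the 13 higher members had 30.2% to 50.8% G or C at the third codon position (median 39.3%), and the 12 lower members 48.5% to 92.2% (median 72.6%). The 19 MOLM-13 members not called had a median of 68.5%, close to that of the lower ones. In HEL the ranges overlapped widely, at 30.2% to 66.5% in the 12 higher members (median 44.0%) and 36.3% to 92.2% in the 19 lower members (median 69.8%). Across tested members the Spearman correlation of log2 change with GC content at the third codon position was -0.64 in MOLM-13 (n = 44) and -0.51 in HEL (n = 47), beside -0.72 and -0.64 in the same order over all coding genes tested. With the GC content of the whole transcript it was -0.66 in MOLM-13 and -0.57 in HEL, and with the length of the 3' untranslated region 0.37 and 0.32. These points share their libraries and genes are not independent replicates, so no p is given. Within pairs, the gene with the lower GC content at the third codon position mostly had the higher P-body change. This held in 9 of 10 pairs in MOLM-13 and in 10 of 10 in HEL. The sign alone was counted, also where the difference lay within its error, as for RAB33A over RAB33B in HEL (-0.15 ± 0.21, SE). The pairs within RAB5 share genes, so the 10 pairs are not independent. The share over other gene pairs was not computed. At the third codon position RAB1A had 41.5% G or C against 76.1% in RAB1B. RAB5A had 30.2% against 57.7% in RAB5B, and RAB11A 35.6% against 88.1% in RAB11B. The coding stretches printed above show the contrast for these pairs. A 30-codon stretch of RAB6A and RAB6B, not printed, did not, with G or C at 9 and 8 of 15 differing bases. Over their whole shared run of 58 codons the counts were 11 and 20 of 28. In a 30-codon stretch of RAB8A and RAB8B, also not printed, the counts were 10 and 6 of 15.

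**Figure D4:**
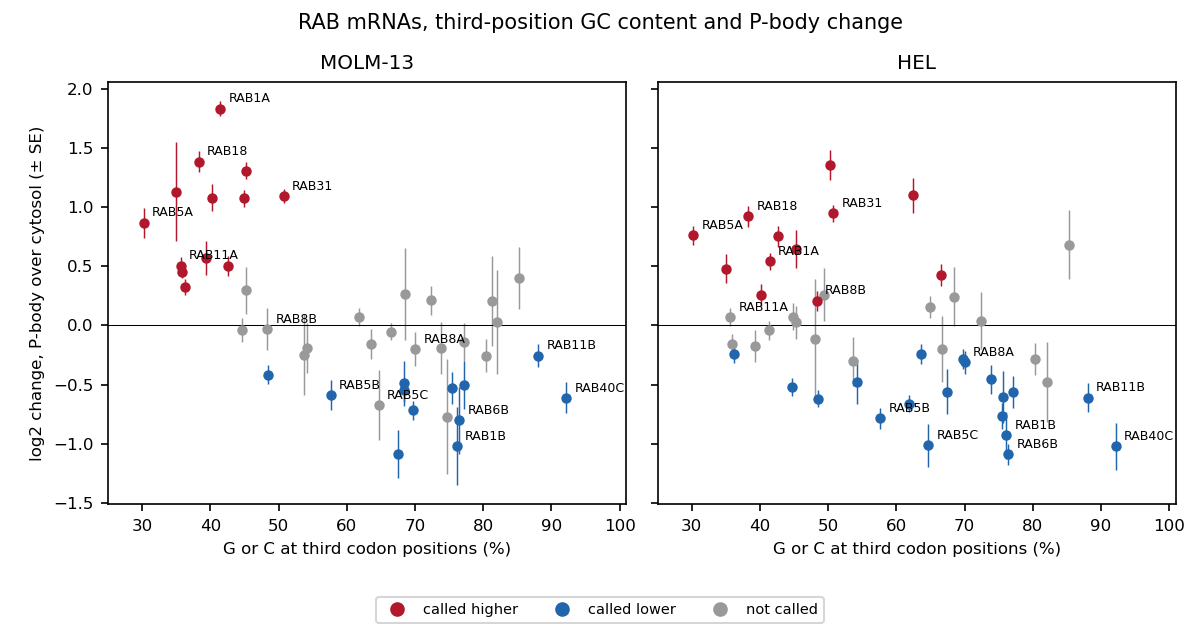
Log2 change of P-body over cytosol with its standard error (y axis) against the share of G or C at the third codon position (x axis, percent) for tested RAB genes in MOLM-13 (left, 44 genes) and HEL (right, 47 genes). Red points were called higher, blue points lower and grey points not called, and in MOLM-13 no gene above 50.8% was called higher.

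A further fit set each gene against genes of like GC content and length. With that trend removed, 6 tested members were higher and 16 lower in MOLM-13 (median log2 change -0.22), where 23.3% of all 12245 genes were higher and 26.5% lower. In HEL 5 were higher and 19 lower (median -0.33), where 22.6% of all 12989 genes were higher and 21.5% lower. RAB1A in MOLM-13 (log2 change 0.91), RAB18 (0.29), RAB27A (0.30) and RAB31 (0.43) were still called higher, as were RAB31 (0.58), RAB39B (0.72) and RAB5A (0.31) in HEL. RAB1A in HEL was no longer called (-0.15). RAB2A (-0.55), RAB14 (-0.68), RAB11A (-0.56) and RAB4A (-0.44) in MOLM-13 were called lower in place of higher, and so were RAB8B (-0.84), RAB22A (-0.53) and RAB23 (-0.42) in HEL. RAB11B in MOLM-13 was called higher in place of lower (0.33), so both members of the RAB11A and RAB11B pair changed sides. RAB5A (0.11), RAB21 (0.08) and RAB22A (0.09) in MOLM-13 lost their calls, and so did RAB30 in HEL (0.31).

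The wider RAB cycle was described from lists of regulators and effectors. Of 12 genes of RAB prenylation and recycling, 6 rose and 3 fell in MOLM-13 P-bodies, and 6 rose and 4 fell in HEL P-bodies, with medians of 0.25 and 0.09. The shares of all genes called higher and lower were 32.4% and 28.5% for MOLM-13 and 27.5% and 27.1% for HEL. CHM, the escort protein that presents new RABs for prenylation, rose most in both, with 148 and 149.9 CPM in MOLM-13 P-bodies against 48.3 and 48.1 CPM in cytosol (3.09-fold), and 49.2 and 48.5 CPM in HEL P-bodies against 17.4 and 18.2 CPM in cytosol (2.75-fold). The lowest in MOLM-13 was RABAC1, an acceptor of prenylated RABs (2.04-fold lower). Of RAB exchange factors, 19 of 53 tested rose and 18 fell in MOLM-13 (median -0.05), and 15 of 51 rose and 23 fell in HEL (median -0.24), the MOLM-13 counts being near the shares of all genes. DENND10 was 3.64-fold higher and the TRAPP subunit TRAPPC5 2.27-fold lower in MOLM-13, and in HEL DENND1B, an exchange factor for RAB35, was 5.13-fold higher and DENND3, one for RAB12, 3.03-fold lower.

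GTPase-activating proteins had 14 of 33 tested members higher and 8 lower in MOLM-13 (median 0.23), and 12 of 36 higher and 13 lower in HEL (median 0.04), beside 32.4% of all genes higher and 28.5% lower for MOLM-13 and 27.5% and 27.1% in HEL. TBC1D23, a Golgi protein that captures endosomal vesicles, rose most of the list in both lines, 3.74-fold in MOLM-13 and 3.33-fold in HEL, and the lowest were TBC1D10B (2.16-fold lower) in MOLM-13 and TBC1D24 (2.499-fold lower) in HEL. Effectors and kinases had 26 of 58 higher and 11 lower in MOLM-13 (median 0.18), and 23 of 61 higher and 25 lower in HEL (median -0.03). RUFY2 was 3.64-fold higher and EHBP1L1 1.96-fold lower in MOLM-13, and in HEL EXPH5, an effector of RAB27, was 4.10-fold higher and PIK3R4, the regulatory subunit of the endosomal lipid kinase, 2.16-fold lower. The other GTPases of the RAS superfamily had 23 of 58 higher and 17 lower in MOLM-13 (median 0.11), and 19 of 60 higher and 14 lower in HEL (median -0.04), with RAP1A 2.81-fold higher and RABL6 2.56-fold lower in MOLM-13. In HEL RASEF, a RAB-like protein, was called higher (9.44-fold) at 3.14 and 2.28 CPM in P-bodies against 0.204 and 0.346 CPM in cytosol.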

How the data were processed

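Per the labels, a miRNeasy Micro kit was used for extraction and a NEBNext Ultra II RNA kit for the libraries, without a word on poly(A) selection. The authors deposited whole-number counts for each gene symbol, 1 table per line. GRCh38, STAR, SAMtools 1.12 and DESeq2 are listed in the submitters' processing notes. Counter, annotation release, strand setting and filters were not given in the sources used here. Reads of genes that share exonic bases with other genes may therefore be lost or shared. This also holds for RAB21 (1431 bases) and RAB8A (1960 bases), each overlapped by a gene on the opposite strand. Rows of 112 symbols that stood on several rows (1348 rows, 0.0193% to 0.0477% of counts) were left out. Within each group the pair of libraries was compared by chi-square, which gave 1.87 to 6.15 per degree of freedom, above sampling noise.

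All genes were fitted with edgeR 4.0.16 in R 4.3.3 (quasi-likelihood test, TMM factors, filterByExpr with a smallest count of 10), P-body over cytosol within each line, and the line difference as the interaction in a fit of all 8 libraries. Benjamini-Hochberg adjustment ran over all genes tested, and genes below 0.05 were called. Standard errors are the log2 change divided by the square root of the F statistic. On simulated counts, 2-fold changes were recovered for 78.9% of changed genes in the HEL design (14421 genes), 79.6% in the MOLM-13 design (13571 genes) and 54.3% in the line difference (16205 genes). Changes of 0.5 on the log2 scale were recovered for 39.4% in HEL, 44.4% in MOLM-13 and 22.0% in the line difference. The simulation changed few genes, while in the data 32.4% were called higher and 28.5% lower in MOLM-13. The recovered shares therefore do not give the share of such changes missed in the data. Differences of paralogue ratios were tested by exact permutation within lines. Transcript features came from the GENCODE 29 transcript with the longest coding sequence, and a loess fit of log2 change on GC content and log length served as the offset for trend removal.

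Named genes followed a rule: members of same-number subfamilies, the 5 highest and 5 lowest called members per line, members called in opposite directions or in the line difference, and the highest and lowest called gene of each list. For 2 lists in HEL the lowest gene is not reported here. The other called members were named as well, after their values were seen, so that each is accounted for. The members and lists were chosen with earlier results of these data known. Alternatives were RLE factors, library totals, DESeq2 1.42.0, no filter, a mean of at least 5 CPM, a replicate block, the trend removed, and each library left out.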

Additional observations from a re-analysis of the deposited data

Results flagged for a closer look

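For 11 RAB genes the P-body change differed between the lines by the interaction test (edgeR quasi-likelihood, MOLM-13 minus HEL, log2 scale). The difference was above 0 for RAB1A (1.10, adjusted p = 1.35e-07), RAB21 (0.81, adjusted p = 0.000279), RAB22A (0.63, adjusted p = 0.00266), RAB7A (0.54, adjusted p = 0.000445), RAB2A (0.41, adjusted p = 0.00247) and RAB14 (0.37, adjusted p = 0.0117). It was below 0 for RAB30 (-1.92, adjusted p = 0.0244), RAB44 (-0.97, adjusted p = 0.00543), RAB29 (-0.67, adjusted p = 0.000244), RAB34 (-0.62, adjusted p = 0.000386) and RAB4A (-0.44, adjusted p = 0.0135). RAB1A, RAB21, RAB22A, RAB2A and RAB7A kept the call when any single library was left out.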

How the results depend on the processing

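With library totals in place of TMM factors, the RAB genes numbered 7 higher and 24 lower in MOLM-13, 7 higher and 25 lower in HEL, and 10 higher in the line difference. In that line difference 1955 of all 17477 genes were higher. Reversals are listed here only for genes called in the main fit, in the alternative or in both. Sign changes of genes called in neither are left out. Under library totals the log2 change reversed for RAB7A (-0.37) and RAB14 (-0.11) in MOLM-13 and for RAB11A (-0.25), RAB22A (-0.068) and RAB8B (-0.12) in HEL. RLE factors gave 10 higher of 53 tested in the line difference, where 1895 of all 17477 genes were higher. No filter gave 3 lower of 62 tested in the line difference, where 1594 of all 43811 genes were lower. DESeq2 gave 6 lower in MOLM-13 (beside 2082 of all 40703 genes) and 11 lower in HEL (beside 2593 of all 32406 genes). Factors within each line gave 11 higher in the line difference, beside 2754 of all 17477 genes. With the GC and length trend removed, 6 were higher in MOLM-13, 5 in HEL, and 3 higher and 9 lower of 39 tested in the line difference. In that line-difference fit 774 of all 10932 genes were higher and 3268 lower, with a median of -0.26, so lower calls prevailed over all genes too. Reversed values were then, in MOLM-13, RAB7A -0.25, RAB11A -0.56, RAB2A -0.55, RAB14 -0.68, RAB9A -0.23, RAB4A -0.44, RAB11B 0.33 and RAB40C 0.056; in HEL, RAB11A -0.90, RAB18 -0.12, RAB1A -0.15, RAB21 -0.93, RAB22A -0.53, RAB23 -0.42, RAB27A -0.18, RAB35 0.0041, RAB3C -0.72, RAB8A 0.10 and RAB8B -0.84; and in the line difference RAB10 -0.28. The cause was not tested. Leaving out 1 library gave 12 to 14 higher and 8 to 13 lower in MOLM-13, 10 to 12 and 13 to 16 in HEL, and 5 to 12 and 0 to 5 in the line difference. The paralogue difference ran from -0.12 to 0.36 for RAB5B over RAB5C and from -0.12 to 0.045 for RAB33A over RAB33B. Same-numbered libraries did not deviate together (correlation -0.01 in MOLM-13 and -0.07 in HEL), so the numbers were not taken as pairs. The replicate block gave 13 higher and 12 lower in MOLM-13, 11 and 19 in HEL (RAB8B lost) and 7 and 5 in the line difference. MOLM-13 cytosol, the shallowest group, limits genes with few counts.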
